A study of Homo sapiens with 12 samples.

Results

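The genes described are ABCB1, ABCB4 and RUNDC3B, 3 neighbours on chromosome 7 of the 18417 genes measured in the series. They were taken as the rows of the value table that the array's annotation gives to these symbols, and were selected on their measured change with decitabine in the drug-resistant line, where ABCB4 and RUNDC3B read higher and ABCB1 moved little. Each had 1 transcript cluster (8140782 for ABCB1, 8140752 for ABCB4 and 8133961 for RUNDC3B), and no cluster of several symbols named any of them. That change is therefore given as a description with no test, as are other comparisons that include the treated resistant cells.

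RNA from 12 samples, 3 in each of 4 groups, was hybridized to Affymetrix arrays. KS is K562, an established human chronic myeloid leukaemia line sensitive to adriamycin (doxorubicin), and KA is K562/ADR, its subline with induced resistance, kept in 50 nM adriamycin. Each line was left untreated or was given 5 nM decitabine for 72 hours, and the stated question was by what pathways decitabine might reverse resistance carried by the drug pump P-glycoprotein. Line and adriamycin in the medium differ together, what untreated cells received and whether adriamycin was present during treatment are not given in the sources used here, and no label says that replicates were separate cultures, so the tests weigh differences against a sample-to-sample spread that may be technical.

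ABCB1 encodes P-glycoprotein, a membrane pump that uses ATP to push anthracyclines and many other drugs out of the cell. ABCB4 is its closest relative and moves phosphatidylcholine across the membrane, best known in hepatocytes, where it supplies phospholipid to bile. RUNDC3B is a RUN-domain protein, a family that binds small GTPases, and it is less studied than the pumps. Decitabine is a hypomethylating agent: once incorporated during replication it binds DNA methyltransferases irreversibly, and CpG methylation is lost over cell divisions.

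In RefSeq's gene order on GRCh38.p14 the run is ABCB4, ABCB1 and RUNDC3B, with CROT on the ABCB4 side and SLC25A40 on the RUNDC3B side. RUNDC3B lies on the plus strand and ABCB1 on the minus strand, and their annotated spans overlap, as do those of ABCB4 and CROT. The RefSeq promoter table held windows for 2 of the 3 genes, with 2 starts for ABCB1, and the start of RUNDC3B lies between them, 27.5 kb from the inner ABCB1 start and 84.9 kb from the outer one. The 250 bases before each of these starts follow, 5′ to 3′ on the gene's own strand, because the agent studied removes methylation at CpG pairs, and capitals mark each CpG.
ABCB1 inner start, chr7:87600885-87601134, minus strand: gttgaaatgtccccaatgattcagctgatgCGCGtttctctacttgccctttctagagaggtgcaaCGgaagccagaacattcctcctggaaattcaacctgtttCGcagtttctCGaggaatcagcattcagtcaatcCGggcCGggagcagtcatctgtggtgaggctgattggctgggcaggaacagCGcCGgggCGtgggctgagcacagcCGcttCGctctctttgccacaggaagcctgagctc
ABCB1 outer start, chr7:87713296-87713545, minus strand: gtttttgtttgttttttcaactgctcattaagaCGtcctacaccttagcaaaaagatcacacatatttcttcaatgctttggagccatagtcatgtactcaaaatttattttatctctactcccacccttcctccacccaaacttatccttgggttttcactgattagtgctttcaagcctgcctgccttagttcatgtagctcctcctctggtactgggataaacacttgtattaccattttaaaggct
RUNDC3B start, chr7:87628148-87628397, plus strand: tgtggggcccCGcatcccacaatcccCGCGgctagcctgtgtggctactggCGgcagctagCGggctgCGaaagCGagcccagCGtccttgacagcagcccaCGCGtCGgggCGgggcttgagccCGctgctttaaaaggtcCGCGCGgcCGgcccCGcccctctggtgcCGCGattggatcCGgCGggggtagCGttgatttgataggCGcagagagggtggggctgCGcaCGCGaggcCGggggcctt
The 3 windows differ widely in CpG content. RUNDC3B held 28 CpG pairs, more than 84.1% of the 35116 windows of the same length in the table, whose median was 11 (quartiles 3 and 23). The inner ABCB1 window held 12, near that median, and the outer one held 1. G and C made up 70.8% of the RUNDC3B window, 55.6% of the inner and 39.2% of the outer ABCB1 window. Across the 14 windows of 10 neighbouring genes the count ran from 0 to 42. Windows of SLC25A40 (42), DBF4 (40), ELAPOR2 (37, beside 2 in another) and SRI (30, beside 0 in another) held more than that of RUNDC3B. Those of the other neighbours held at most 27 (DMTF1). No methylation was measured in these samples, so the CpG counts describe the sequence only.

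The letters CCAAT, searched on both strands, occurred in 32.0% of all windows. In the inner ABCB1 window they stood in reverse (attgg) 79 to 75 bases before the start and forward 238 to 234 bases before it, and in the RUNDC3B window in reverse 76 to 72 bases before the start. The letters GGGCGG, also searched on both strands, occurred in 42.6% of windows. RUNDC3B held a forward copy 141 to 136 and a reverse copy 95 to 90 bases before its start. These are matches of letters and not measured binding sites.

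Values are log2 intensities, and a group mean that does not pass 3.39 (the lower quartile of the array on which it was highest) is described as not shown to exceed background. ABCB1 read 3.30, 3.24 and 3.63 on the untreated KS arrays and 3.78, 3.05 and 3.54 on the treated ones. On the KA arrays it read 11.22, 11.17 and 11.26 untreated and 11.32, 11.36 and 11.41 treated. Every KA array thus lay far above every KS array. The untreated KS mean of 3.39 ± 0.21 (SD, n = 3) did not pass the background level, while the treated KS mean of 3.46 ± 0.37 passed it by 0.06.

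ABCB4 read 3.45, 3.58 and 3.89 in untreated KS and 3.40, 3.77 and 3.50 in treated KS. It read 5.10, 4.91 and 4.89 in untreated KA and 6.21, 6.45 and 6.44 in treated KA. The levels form 3 steps, with the KS groups mixed at the bottom, untreated KA above them and treated KA at the top, and no overlap between steps. The shares of all genes that separated in these ways are given with the comparisons below.

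RUNDC3B read 3.44, 3.34 and 3.99 in untreated KS and 3.19, 3.57 and 3.50 in treated KS. It read 4.85, 4.53 and 3.91 in untreated KA and 6.13, 5.75 and 6.11 in treated KA. The order of groups is that of ABCB4, but untreated KA and untreated KS overlap: the lowest untreated KA array (replicate 3, 3.91) lay below the highest untreated KS array (replicate 3, 3.99). Untreated KS replicate 3 was the highest untreated KS array for all 3 genes.

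**Figure D1:**
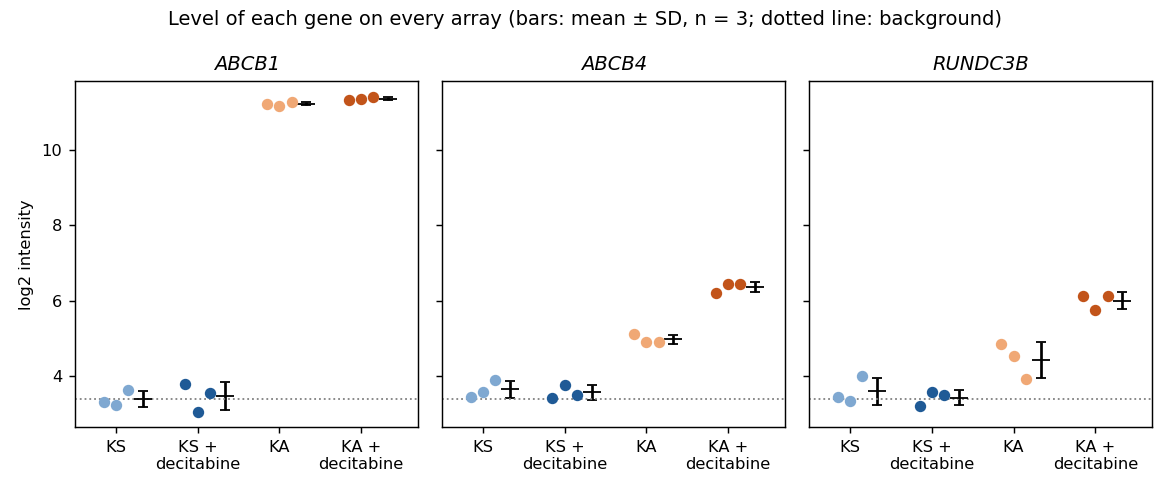
Log2 intensity of ABCB1, ABCB4 and RUNDC3B on each of the 12 arrays (points), with mean ± SD over 3 arrays beside each group and the background level of 3.39 as a dotted line. ABCB1 sits near 3.4 in KS and above 11 in KA with or without decitabine, whereas ABCB4 and RUNDC3B read about 5 and 4.4 in untreated KA and about 6 in treated KA.

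Facts of the whole series bear on these values as follows. Array medians lay between 4.96 and 5.01, the highest value on any array was 13.2, and Pearson's r over all clusters between arrays of a group was 0.990 to 0.995. Untreated KS replicate 3 stood apart: over the 329 genes whose log2 value was at least 1 higher in treated KS when that array is left aside, it lay a median of 25.1% of the way to the treated arrays, and treated KS replicate 1 lay 14.7% of the way back over 271 genes. Over lowered genes these shares were 33.8% (148 genes) and 19.7% (147 genes), and whether these samples hold RNA of both treatments was not tested. Over raised genes the other 10 arrays lay between -13.4 and 10.5%. Over lowered genes they lay between -13.0 and 22.0%. The highest of these rest on few genes: untreated KA replicate 3 (22.0%, 4 genes) and treated KA replicate 3 (19.4%, 5 genes). Over lowered genes treated KS replicate 1 thus did not exceed all other arrays. Of the erythroid and K562 markers, 8 of 10 had a cluster of their own and all 8 exceeded background in every group. So did all 5 megakaryocyte and all 5 T-cell markers. Of 5 monocyte markers 4 did (not FCGR3A), as did 4 of 5 epithelial markers (not the cadherin CDH1). Of 3 measured B-cell markers 2 did (not MS4A1). Of 6 fibroblast and endothelial markers 4 or 5 did, depending on the group (DCN in none). The markers of other cell types thus mostly passed the background level. That level is a lower quartile, so most clusters of an array pass it, and passing it does not show that a cell type is present. The T-cell markers summed to between 19.7 and 21.1 on KS arrays and between 22.3 and 23.5 on KA arrays, with 1 of 5, CD3D, called between untreated lines (4.67 in KS and 6.95 in KA). Calls between untreated lines were also made for 3 of 8 erythroid, 1 of 5 megakaryocyte, 2 of 5 monocyte and 2 of 5 epithelial markers. Of 6 fibroblast and endothelial markers 2 were called and of 3 B-cell markers 0, beside 25.7% of all genes. The monocyte markers summed to 28.1 to 28.4 in untreated and 30.1 to 30.6 in treated KA, and to 27.0 to 29.9 and 31.6 to 32.1 in KS. The megakaryocyte markers summed to 22.7 to 23.4 and 25.7 to 26.0 in KA, and to 22.2 to 24.3 and 25.8 to 26.2 in KS. These sums do not show a shift of whole sets. In KA the means of ITGA2B (6.04 to 7.52) and ITGB3 (4.68 to 6.2) rose. Those of GP9 (5.15 to 5.07), PF4 (3.66 to 3.62) and PPBP (3.54 to 3.49) did not. Of the monocyte markers LYZ rose most in KA (7.21 to 8.98), while CD14 went from 4.41 to 4.22. With decitabine, 2 of 5 megakaryocyte, 1 of 5 monocyte and 1 of 8 erythroid markers were called in KA, beside 14.6% of all genes. In KS 2, 3 and 6 of them were called, beside 30.3% of all genes. The part of these shifts in the results below was not tested.

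The comparison of untreated lines asks what accompanies resistance in cells without decitabine. All 3 genes were higher in KA, against 11.6% of all genes called higher, 14.1% called lower and 25.7% called in all. Under quantile normalization the split over all genes turned from 2133 higher and 2602 lower to 2610 and 2186, and in KS with decitabine from 2685 and 2900 to 3086 and 2546. ABCB1 was at least 227-fold higher, a bound because untreated KS was not shown to exceed background (log2 difference 7.83 ± 0.15 SE, 95% interval 7.51 to 8.15, adjusted p = 1.16e-12, limma). This was the highest difference of the 18417 genes. ABCB4 was 2.51-fold higher (4.97 ± 0.12 in KA and 3.64 ± 0.22 in KS, mean ± SD, n = 3), a log2 difference of 1.33 ± 0.12 SE with an interval of 1.06 to 1.60 (adjusted p = 4.92e-06, limma), which put it at place 160 from the top. RUNDC3B was 1.79-fold higher (4.43 ± 0.48 in KA and 3.59 ± 0.35 in KS), a log2 difference of 0.84 ± 0.22 SE with an interval of 0.36 to 1.32 (adjusted p = 0.0128, limma).

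The RUNDC3B difference is the least certain of the 3. Its call was lost without untreated KS replicate 1 (0.77, adjusted p = 0.0526), untreated KS replicate 2 (0.71, adjusted p = 0.0577) or untreated KA replicate 1 (0.63, adjusted p = 0.0618). Without untreated KS replicate 3 it was 1.04 (adjusted p = 0.00437, limma). ABCB1 and ABCB4 showed groups without overlap in this comparison, as did 18.4% of all genes in the higher direction. The untreated KA arrays also serve in the change with decitabine in KA, so the comparisons share samples.

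In bulk RNA, fewer cells with a transcript and less RNA per cell cannot be told apart, and this holds for every level given here.

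ABCB4 and RUNDC3B flank ABCB1, yet their differences between untreated lines were far smaller than its own. Of 10 further genes of the stretch, 9 were higher in KA (median difference 3.28, against 0.02 over all genes) and each kept that call under every alternative run. CROT, a peroxisomal carnitine acyltransferase next to ABCB4, was higher by 6.54 ± 0.08 and SLC25A40, a mitochondrial glutathione carrier next to RUNDC3B, by 3.35 ± 0.07. The RUNDC3B difference of 0.84 lay below those of all 9, whose lowest was 1.11 ± 0.12 for ADAM22, a cell-surface protein. The KS means of CROT (2.71) and ADAM22 (2.92) were not shown to exceed background, so part of each difference lies below the background level of 3.39. Whether the RUNDC3B difference is smaller than that of ADAM22 is therefore not settled. STEAP4, a metalloreductase at 2.07 in KS and 2.16 in KA, was not shown to exceed background in either line.

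**Figure D2:**
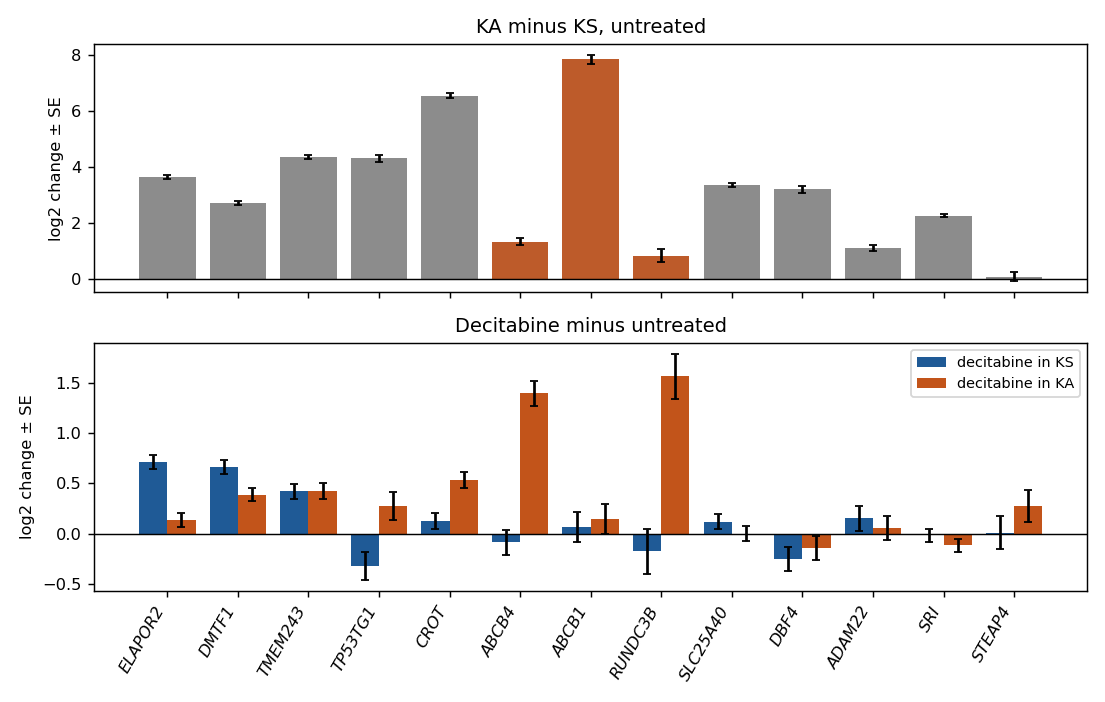
Log2 change ± SE for 13 genes of the stretch in RefSeq gene order, with KA minus KS untreated above (orange bars are ABCB4, ABCB1 and RUNDC3B, grey bars their listed neighbours) and decitabine minus untreated below (blue in KS, orange in KA). In the upper panel ABCB1 stands at 7.83 between the lower bars of ABCB4 (1.33) and RUNDC3B (0.84). In the lower panel ABCB4 (1.40) and RUNDC3B (1.56), which were chosen by this change, have the tallest KA bars. Beside them stand 0.15 for ABCB1 and 0.53 for CROT.

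Decitabine in the sensitive line is the test of the drug that did not enter the choice of genes. None of the 3 was called in KS, where 30.3% of all genes were called by limma (14.6% higher and 15.7% lower). The unadjusted intervals of all 3 changes included 0. ABCB1 changed by 0.07 ± 0.15 (interval -0.25 to 0.39, adjusted p = 0.794, limma), ABCB4 by -0.08 ± 0.12 (interval -0.35 to 0.18, adjusted p = 0.686, limma) and RUNDC3B by -0.17 ± 0.22 (interval -0.65 to 0.31, adjusted p = 0.631, limma). Treated and untreated KS arrays overlapped for each gene.

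The KS levels were close to background: group means of the 3 genes exceeded it by at most 0.25 (ABCB4, untreated), so little of any fall there would lie above background. Without untreated KS replicate 3 the ABCB4 change was 0.04 (adjusted p = 0.851) and that of RUNDC3B 0.03 (adjusted p = 0.951), and without both KS arrays that stood apart they were 0.12 (adjusted p = 0.532) and 0.14 (adjusted p = 0.723), so the sign of neither is settled. The ABCB1 change turned to -0.01 without untreated KS replicate 2 (adjusted p = 0.986) and to -0.09 without treated KS replicate 1 (adjusted p = 0.698), and reached 0.27 without treated KS replicate 2 (adjusted p = 0.108). No call in KS was gained in any of these.

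In the resistant line, the comparison by which the genes were chosen, ABCB4 and RUNDC3B read higher on every treated array than on any untreated one. The same separation was seen for 19.5% of all genes. ABCB4 read 4.97 ± 0.12 before and 6.36 ± 0.13 after decitabine, a log2 change of 1.40 and 2.63-fold. RUNDC3B read 4.43 ± 0.48 before and 6.00 ± 0.22 after, a change of 1.56 and 2.95-fold. In order of size from the top, these were changes 32 and 21 of 18417. The gap between the highest untreated and the lowest treated KA array was 1.11 for ABCB4 and 0.89 for RUNDC3B.

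The differences between same-numbered KA arrays were 1.11, 1.53 and 1.55 for ABCB4 and 1.28, 1.21 and 2.20 for RUNDC3B. The largest of these for RUNDC3B came from untreated KA replicate 3, the low array of its group, and without that array the change was 1.30. With each of the 12 arrays left out in turn, the change ranged from 1.36 to 1.47 for ABCB4 and from 1.30 to 1.77 for RUNDC3B. Numbers did not mark shared cultures in the labels.

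The ABCB1 arrays also separated in KA, by a small margin. All 3 treated arrays (11.32 to 11.41) lay above all 3 untreated ones (11.17 to 11.26), with a gap of 0.06, and the means were 11.22 ± 0.04 and 11.36 ± 0.04 (SD, n = 3). The change of 0.15 is 1.11-fold on the linear scale. Its SE was 0.15 in the fit of all 12 arrays and 0.06 in a fit of the 6 KA arrays alone. The pooled SD of ABCB1 was 0.30 over the KS groups, near background, and 0.04 over the KA groups. Treated arrays all above untreated ones in KA were also seen for 19.5% of all genes, and 14.6% of all genes were called there (9.66% higher and 4.96% lower). The absolute change of ABCB1 exceeded that of 55.5% of genes.

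With the spread of the 12 arrays shared, ABCB1 differed between the responses of the lines by 0.08 ± 0.21, ABCB4 by 1.48 ± 0.18 and RUNDC3B by 1.74 ± 0.31 (KA minus KS, log2 scale). These differences of responses contain the change used to choose the genes and are given without a test. By the same term 6.74% of all genes were called, 4.6% higher and 2.14% lower, and of the 78 genes in the lists used below 7 were called. Without both KS arrays that stood apart the ABCB4 value was 1.28.

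**Figure D3:**
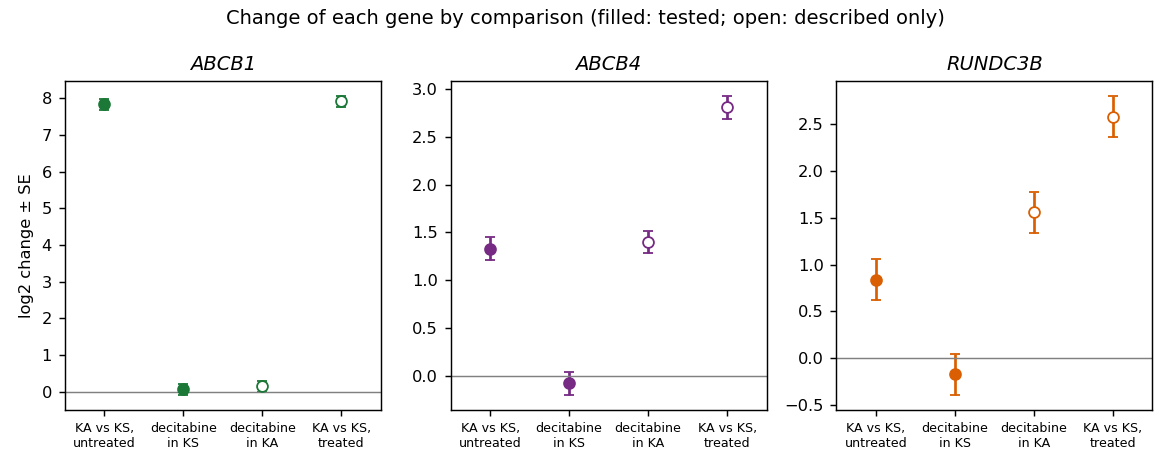
Log2 change ± SE of each gene (one panel each, with its own scale) in 4 comparisons; filled points were tested and open points are described only. ABCB1 differs between lines by 7.83 and 7.91 and lies near 0 with decitabine, while ABCB4 and RUNDC3B lie near 0 with decitabine in KS and at 1.40 and 1.56 in KA.

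After decitabine the lines lay further apart for ABCB4 and RUNDC3B than before it. Treated KA exceeded treated KS by 2.81 for ABCB4 (7.01-fold) and by 2.58 for RUNDC3B (5.97-fold), beside 1.33 and 0.84 between untreated lines. KS means exceeded background by only 0.16 (ABCB4) and 0.02 (RUNDC3B) treated, and by 0.25 and 0.20 untreated. These differences and folds thus rest on KS levels near background and are not exact. For ABCB1 the differences were 7.91 treated and 7.83 untreated. Treated KA arrays of all 3 genes lay above all treated KS arrays, as did 22.1% of genes. These comparisons share no control arrays with those of untreated lines, but the treated KA arrays are those of the change by which the genes were chosen.

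**Figure D4:**
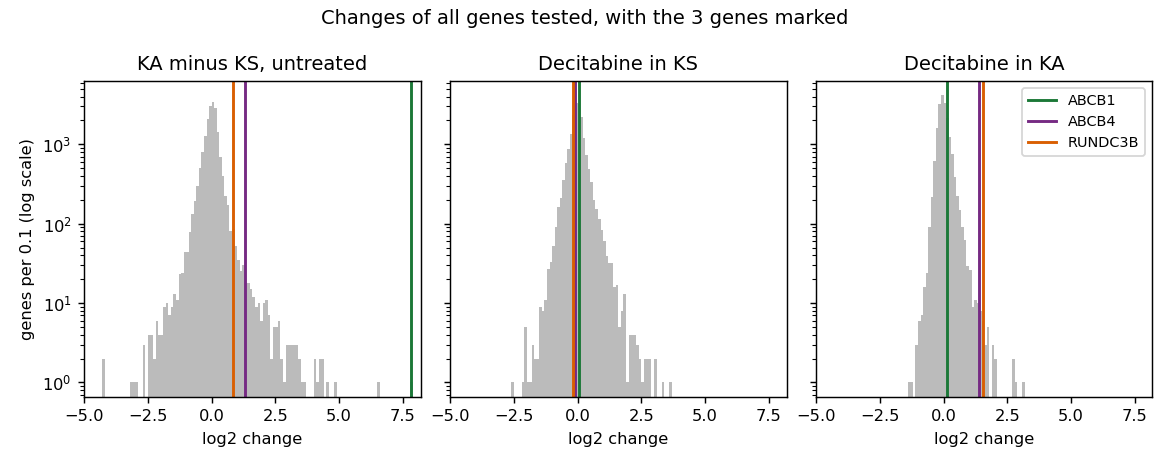
Distribution of the log2 change over 18417 genes (grey bars, genes per bin of width 0.1, log axis) in 3 comparisons, with the 3 genes as coloured lines. ABCB1 lies at the right end (7.83) between untreated lines, all 3 genes lie in the centre with decitabine in KS, and ABCB4 (1.40) and RUNDC3B (1.56) lie in the right tail with decitabine in KA.

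Likeness of pattern was measured as the root mean square difference over the 12 arrays, each gene centred on its own mean. ABCB4 and RUNDC3B differed by 0.29, which makes ABCB4 the gene most like RUNDC3B of all tested, and RUNDC3B the third most like ABCB4. The measure includes the KA change by which both were chosen and is a description. The median over all genes was 1.17 from ABCB4 and 1.07 from RUNDC3B. ABCB1 differed by 2.94 from ABCB4 and 3.14 from RUNDC3B, which were the genes at places 78 and 122 in likeness to it, the median from ABCB1 being 3.94.

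Other genes near ABCB4 were INHBE, an inhibin subunit (0.22), IL20RB, a cytokine receptor chain (0.28), EGF, epidermal growth factor (0.30), and MYEF2, a nuclear RNA- and DNA-binding protein (0.33). Near RUNDC3B were EGF (0.32), BEST1, a chloride channel (0.33), CYRIA, a RAC1-binding protein (0.41), and ARHGAP26 (0.42). EGF, on chromosome 4, read 3.53 and 3.53 in untreated and treated KS, 4.45 in untreated KA and 6.03 in treated KA. None of these lies on chromosome 7. The gene most like ABCB1 was CROT (0.61, against a median of 3.94), which read 2.71 and 2.83 in KS and 9.25 and 9.78 in KA. It was followed by TP53TG1 (1.66), SSX1 (1.75), TMEM243 (1.77) and CA2 (1.81). TP53TG1 and TMEM243 are neighbours on chromosome 7, and SSX1 belongs to a family of near-identical copies that its cluster may not separate.

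**Figure D5:**
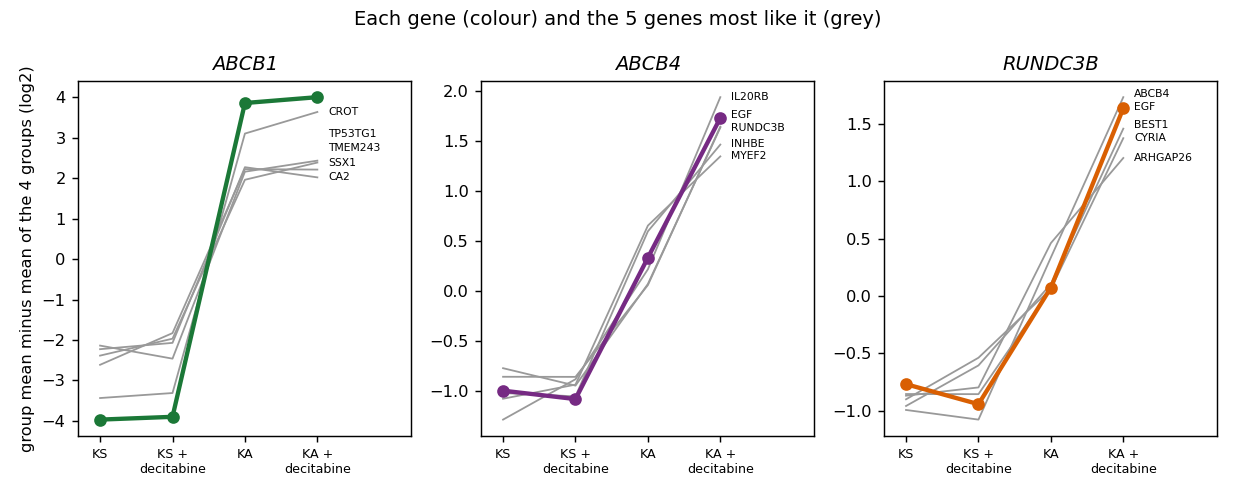
Group means minus the mean of the 4 groups (log2) for ABCB1, ABCB4 and RUNDC3B (colour) and the 5 genes most like each over the 12 arrays (grey). ABCB1 and its companions differ most between KS and KA, with smaller changes with decitabine (CROT 9.25 to 9.78 in KA, SSX1 5.79 to 6.57 in KS), while ABCB4, RUNDC3B and theirs step up between KS and KA and again in treated KA.

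Of the 10 listed neighbours, decitabine raised 3 in KA (median change 0.21, against -0.02 over all genes, of which 9.66% rose) and 3 in KS (median 0.12, against -0.01 over all genes, of which 14.6% rose). Calls in either direction were made for 14.6% of all genes in KA and 30.3% in KS. In KA these were CROT (0.53 ± 0.08, adjusted p = 0.00121), TMEM243, a small membrane protein (0.43 ± 0.08, adjusted p = 0.00371), and DMTF1, a cyclin D binding factor (0.39 ± 0.07, adjusted p = 0.00219). In KS they were ELAPOR2, an endosomal and lysosomal protein (0.71 ± 0.07), DMTF1 (0.66 ± 0.07) and TMEM243 (0.42 ± 0.08). SLC25A40, next to RUNDC3B, changed by -0.00 ± 0.07 in KA (adjusted p = 0.992). The KA changes of all 10 neighbours, from -0.14 (DBF4) to 0.53 (CROT), lay below those of ABCB4 and RUNDC3B. ABCB4 and RUNDC3B were chosen by that same change, so this order was largely set by the choice.

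Among the other members of the ABCB subfamily, 8 of 9 listed were measured. Between untreated lines 2 were higher and 2 lower (median -0.04), where 25.7% of all genes were called. ABCB6, a porphyrin transporter, was higher by 0.52 ± 0.08 and ABCB10, a mitochondrial transporter of erythroid cells, by 0.30 ± 0.07. TAP2 (-0.32 ± 0.09) lost its call without untreated KS replicate 1 or untreated KA replicate 1, and ABCB8, a mitochondrial transporter (-0.32 ± 0.07), when the mean of its clusters was used. With decitabine in KS, where 30.3% of all genes were called, 5 rose and 2 fell (median 0.40): TAP1, which with TAP2 carries peptides into the endoplasmic reticulum, by 1.50 ± 0.16 (adjusted p = 2.19e-05), ABCB11, the bile salt pump, from 3.24 to 4.24 (adjusted p = 0.00123), ABCB9, a lysosomal peptide transporter, by 0.71 ± 0.12 and ABCB6 by 0.54 ± 0.08. With decitabine in KA, where 14.6% of all genes were called, 1 rose, TAP1 by 0.77 ± 0.16 (adjusted p = 0.00695), with a median of 0.07. The untreated level of ABCB11 was not shown to exceed background, so part of its rise in KS lies below the background level.

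Of 30 factors known to act on the ABCB1 promoter or its chromatin, 27 were measured. Between untreated lines 3 were higher and 7 lower (median -0.05, with 25.7% of all genes called). ETS1, an ETS factor, was higher by 2.19 ± 0.12 and JUN, a subunit of AP-1, by 1.02 ± 0.08. EGR1, an immediate early zinc finger factor, differed by -2.19 ± 0.25 and FOS, the partner of JUN, by -1.12 ± 0.17. With decitabine in KS 2 rose and 11 fell (median -0.14, with 30.3% of all genes called): EGR1 changed by -2.07 ± 0.25, FOS by -1.73 ± 0.17, NFKB1, an NF-kappaB subunit, by -0.57 ± 0.08 and KAT2B, a histone acetyltransferase, by 0.92 ± 0.10. With decitabine in KA 2 rose and 1 fell (median 0.01, with 14.6% of all genes called), namely KAT2B (0.42 ± 0.10), NFYA, a subunit of the factor that binds CCAAT (0.27 ± 0.07), and WT1, a zinc finger factor (-0.23 ± 0.07). Of 21 alternatives, the call of KAT2B was lost in 4, that of NFYA in 5 and that of WT1 in 7, among them leaving out untreated KA replicate 1 or treated KA replicate 1 for each.

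Of 12 genes of canalicular transport, the setting in which ABCB4 is best known, 11 were measured. Between untreated lines 1 was higher and 1 lower (median -0.05, with 25.7% of all genes called), namely TMEM30A, the partner subunit of phospholipid flippases (0.20 ± 0.07), and ATP8B1, such a flippase (3.01 in KS and 2.62 in KA, neither shown to exceed background). Among the alternatives run these calls were lost in 12 and 5, and the filter on dim genes leaves ATP8B1 out. With decitabine in KS 4 rose (median 0.09, with 30.3% of all genes called): besides ABCB11, ATP8B1 rose by 1.36 ± 0.11 from a level at background (3.01 to 4.37), PPARA, a nuclear receptor that induces ABCB4 in liver, by 0.82 ± 0.13 and TMEM30A by 0.53 ± 0.07. In KA 3 rose (median 0.01, with 14.6% of all genes called), of which TMEM30A (0.37 ± 0.07, adjusted p = 0.00438) kept its call throughout. The PPARA rise in KA (0.50 ± 0.13, adjusted p = 0.0201) lost its call without untreated KA replicate 2 or 3 or treated KA replicate 1 or 3, and that of RXRA, the partner of PPARA (0.24 ± 0.07), was lost in 6 of 21 alternatives.

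All 23 listed RUN-domain and Rap genes were measured. Between untreated lines 1 was higher and 5 lower (median 0.02, with 25.7% of all genes called): DENND5A, a Rab exchange factor, was higher by 0.91 ± 0.07, while its relative DENND5B differed by -1.13 ± 0.11, PLEKHM1, a lysosomal adaptor, by -0.71 ± 0.15 and RUBCN, an autophagy inhibitor, by -0.55 ± 0.08. With decitabine in KS 2 rose and 4 fell (median 0.01, with 30.3% of all genes called), of which DENND5B (0.58 ± 0.11) kept its call under every alternative. RUNDC3A, the closest relative of RUNDC3B (0.36 ± 0.12), lost its call in 11 of 21 alternatives, RAP1B, a small GTPase (-0.37 ± 0.12), in 6 and RUSC2 (-0.29 ± 0.08) in 1, without treated KS replicate 3. In KA 4 rose and 2 fell (median 0.01, with 14.6% of all genes called), of which PLEKHM2, an adaptor of lysosome movement (0.37 ± 0.07, adjusted p = 0.00442), kept its call throughout. PLEKHM1 (0.50 ± 0.15) lost it in 6 of 21 alternatives, RAP2B, a small GTPase (-0.32 ± 0.08), in 2 and SNX29 (0.38 ± 0.09) in 1, the mean of its clusters. RUNDC3A read 4.24 in untreated and 4.23 in treated KA (adjusted p = 0.986).

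Beside these values stand limits of the array. ABCB1 and ABCB4 are close paralogues and the probe sequences were not used here, so how far the ABCB4 cluster also reads ABCB1 RNA was not tested. Where spans on opposite strands overlap, RNA of the 2 genes cannot be told apart unless the probes are strand-specific, which the sources used here do not give.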

How the data were processed

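The 12 arrays hold K562 and K562/ADR without and with decitabine, 3 per group, from Trizol total RNA labelled as biotin cRNA, per the labels' protocols. The authors deposited log2 intensities for 33297 transcript clusters; the sources used here do not say how background, summarization and normalization were done. The values were tested without rescaling.

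By the platform annotation, 19460 clusters name a single gene, 1754 several and 12083 none; 19429 matched a RefSeq gene by Entrez identifier. Each of 18417 genes was represented by its brightest cluster (769 had several). A model of 4 group means was fitted to the 12 arrays with lmFit and eBayes (limma 3.58.1 under R 4.3.3; residual df 8, prior df 4.71), and p-values were adjusted over all genes by Benjamini-Hochberg; a call is an adjusted p under 0.05. The script was tested on simulated data.

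The 3 genes and all gene lists were chosen with earlier results of these data known. From each list at most 4 called members per comparison are named, those that changed most, besides neighbours on which a result turns, and the 5 genes most like each of the 3; RUNDC3A's level in KA was added after its values were seen. Alternatives were median centring, quantile normalization, a filter on dim genes, another prior, only the groups compared, a replicate block, array weights, mean of clusters and each array left out; leaving out both KS arrays that stood apart was added after seeing the data. The labels give no pairing by replicate number. The 12 same-number correlations of deviations ran from -0.26 to 0.19, 2 over 0.1, and unlike numbers reached 0.26. With 3 arrays a group, deviations from the group mean are tied to each other, so this does not settle whether samples were paired. No pair of arrays held identical values. Figures used matplotlib 3.10.9 in Python 3.11.15. The number of arrays limits the precision.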

Additional observations from a re-analysis of the deposited data

Results flagged for a closer look

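Over the 78 measured genes of all lists, 7 differed between the lines in their response to decitabine by limma's interaction term (KA minus KS, log2 scale), beside 6.74% of all genes. ABCB1, ABCB4 and RUNDC3B are not among the genes tested here. EGR1 differed by 1.81 ± 0.35 (adjusted p = 0.0119), having changed by -2.07 in KS and -0.26 in KA, and FOS by 1.66 ± 0.24 (adjusted p = 0.00289), having changed by -1.73 and -0.06. NFKB1 differed by 0.62 ± 0.11 (adjusted p = 0.0101), NFYC, a subunit of the factor that binds CCAAT, by 0.44 ± 0.09 (adjusted p = 0.0148) and RELA, an NF-kappaB subunit, by 0.37 ± 0.10 (adjusted p = 0.0492). ATP8B1 differed by -1.32 ± 0.16 (adjusted p = 0.00221), reading at most 2.66 in KA, below background, and ELAPOR2, from the stretch around ABCB1, by -0.58 ± 0.10 (adjusted p = 0.00749). The RELA call was lost in 13 of the alternatives run, and a fit of only the groups compared was not among them for this term. The losses included leaving out any KA array, or any KS array but untreated replicate 2 and treated replicate 2. Without untreated KS replicate 3 the RELA difference was 0.35 (adjusted p = 0.0572, limma). Over the alternatives run its adjusted p ran from 0.0159 to 0.175, while those of the other 6 genes stayed at or below 0.0437.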

How the results depend on the processing

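Of 312 recomputed values of the 3 genes over 5 comparisons, 302 kept their direction and side of the threshold or, where untested, moved by less than the spread between replicates. Between untreated lines the RUNDC3B difference ran from 0.63 to 1.10 with single arrays left out (adjusted p = 0.00147 to 0.0618), and the calls of ABCB1 (7.75 to 7.95) and ABCB4 (1.23 to 1.45) held in each. With decitabine in KS, single arrays left out gave -0.09 to 0.27 for ABCB1 (-0.01 without untreated replicate 2), -0.19 to 0.04 for ABCB4 and -0.30 to 0.03 for RUNDC3B, and leaving out both KS arrays that stood apart turned ABCB4 to 0.12 and RUNDC3B to 0.14 and lowered the ABCB4 difference of responses to 1.28; fewer arrays enter each of these. Genes called with decitabine in KA numbered 2694, 4417 with array weights and 1653 to 3020 with single arrays left out. Genes called for the difference of responses numbered 1241, 1918 with a trended and robust prior, 2288 with array weights, 2035 without both KS arrays and 564 to 2049 with single arrays left out; quantile normalization moved the split from 847 higher and 394 lower to 611 and 522. With replicate number as a block that count was 778; the block changed no call of the 3 genes (RUNDC3B between untreated lines 0.84, adjusted p = 0.0246). The cause of these shifts in counts was not tested. Levels near background limit what can be said of all 3 genes in KS.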
